A study of Rattus norvegicus with 8 samples.

Results

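The genes described here are the creatine kinases and the enzymes and carriers that handle creatine and adenine nucleotides in muscle: Ckm, Ckb, Ckmt2, Slc6a8, Gatm, Gamt, Ak1, Ampd1, Ampd3 and Slc25a4. They were chosen by symbol, and every probe set annotated to 1 of these symbols alone was taken. This gave 11 probe sets of 9 genes, out of 31042 probe sets on the array. Slc6a8 and Gatm had 2 probe sets each, and the other 7 genes had 1. Ak1, for adenylate kinase 1, was not analysed here because no probe set carried its symbol in the annotation used.

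Gene expression in the extraocular muscles, which turn the eyeball, was read from total RNA of 8 adult Sprague-Dawley rats, each on its own Affymetrix array. The hyperthyroid group of 4 rats received triiodothyronine (T3, the active thyroid hormone) at 25 µg per 100 g of body weight, injected into the abdomen every 2 days for 6 weeks, and tissue was taken 24 hours after the final dose. The control group of 4 rats was untreated, and no sham injection is mentioned. All rats had the same stated starting weight of 200 ± 40 g, and allocation was random. The arrays are called hyperthyroid 1, 2, 3 and 5 and control 7, 8, 9 and 11, after the numbers in their labels. The question was how a long excess of T3 alters expression in these muscles.

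Creatine kinases move a phosphate group between ATP and creatine, so that phosphocreatine can buffer ATP during contraction and carry energy between mitochondria and myofibrils. Ckm is the muscle form in the cytosol, Ckmt2 the sarcomeric form in mitochondria, and Ckb the brain form, which is also made in smooth muscle and other non-skeletal cells. Creatine is built by Gatm and Gamt, chiefly in kidney and liver, and muscle takes it up from blood through the transporter Slc6a8. When ATP use outruns supply, AMP deaminases (Ampd1, the muscle form, and Ampd3, a form first known from red cells) convert AMP to IMP. Slc25a4 is the ADP/ATP carrier of the inner mitochondrial membrane in heart and skeletal muscle.

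Values are signals on a linear scale, already brought to the same trimmed mean of 149.99 on each array, and differences are hyperthyroid minus control on the log2 scale with their standard error (SE). Median signals per array ran from 47.7 to 58.4. The array labelled hyperthyroid 5 stood apart from the others and did not carry the defining eye muscle signal: Myh13, the extraocular myosin, was at 4.17 on it and between 5430 and 9340 on the other 7, while Hoxa10, a homeobox gene of the trunk and limbs, was at 399 on it and at most 27.8 elsewhere. The general muscle markers were present on it, with Ckm among them. Hyperthyroid 2 and 5 were also low in markers of oligodendrocytes and the optic nerve. Member results are therefore given with and without hyperthyroid 5. The Gapdh signal at the 3 prime end over that at the 5 prime end, a ratio that is higher in shortened RNA, was 3.91, 4.40, 2.18 and 1.44 on hyperthyroid 1, 2, 3 and 5, against 1.67 to 1.97 on the controls.

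No member passed the threshold of an adjusted p under 0.05. The test was limma across 18625 probe sets with Benjamini-Hochberg adjustment, and it called 0.0% of them, with a smallest adjusted p of 0.151. Of the 11 member probe sets, 10 passed the filter on dim signals and were tested. At an unadjusted p under 0.05, 2 of these 10 were lower in hyperthyroid muscle, Ckb and the brighter probe set of Slc6a8, and 0 were higher. Over all probe sets, 5.3% were lower and 6.25% higher at that level. Of the 10, 9 had a negative difference, and their median was -0.18, beside 0.03 over all probe sets tested. The median difference over all probe sets was 0.15 in the dimmest of 5 equal bins of signal and -0.06 in the brightest, which held 5 of the 10 member probe sets. Without hyperthyroid 5, the lower member probe sets were 3, with Ampd1 added, beside 7.64% of all probe sets, and 0 were higher, beside 7.55%. In that fit 0.156% of probe sets, 29 in number, passed the adjusted threshold, and 0 of them belonged to a member. Without both hyperthyroid 2 and hyperthyroid 5, 4 member probe sets were lower (Ckm, Ckb, Slc6a8 and Ampd1), beside 6.95% of all probe sets, and 0.0483% of all passed the adjusted threshold, with 0 members among them.

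**Figure D1:**
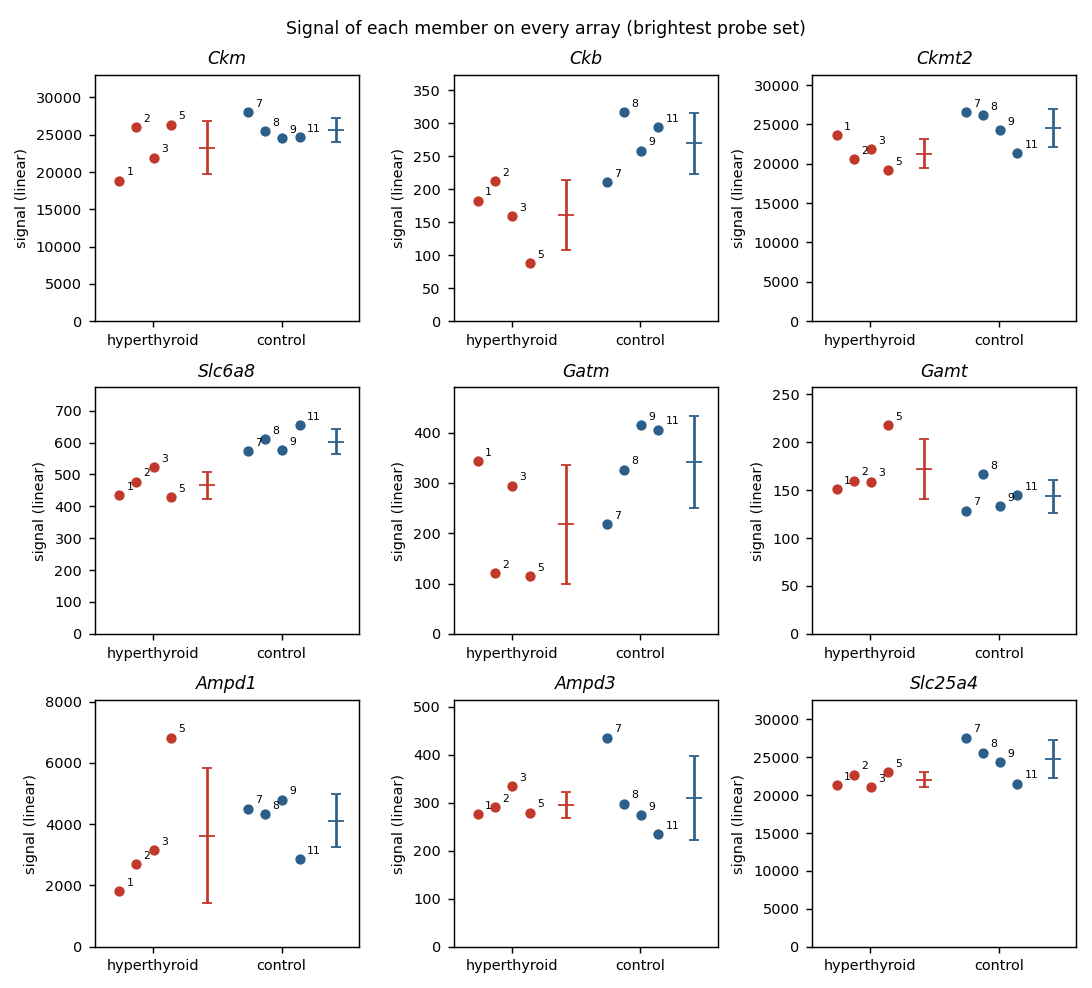
Signal of the brightest probe set of each of the 9 genes (vertical axis, linear, from 0) on the 4 hyperthyroid (left) and 4 control (right) arrays, with array numbers beside the points and bars for the mean ± SD. Slc6a8 separates the groups, Ckb nearly does, Gatm is low on hyperthyroid 2 and 5, and Ampd1 is high on hyperthyroid 5.

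On all 8 arrays Ckb, the brain kinase, and Slc6a8, the transporter, had the smallest p of the group, while without hyperthyroid 5 Ampd1 did. Promoter sequence is shown for Ckb and Slc6a8, and for Ckm, the muscle kinase, whose signal lay close to control. Each runs from 250 bases before to 50 after the RefSeq start on build GRCr8, in the direction of transcription, with capitals marking matches to CANNTG (the E-box bound by myogenic factors) or TATAAA on either strand.
Ckm, chr1:88189211-88189510, plus strand: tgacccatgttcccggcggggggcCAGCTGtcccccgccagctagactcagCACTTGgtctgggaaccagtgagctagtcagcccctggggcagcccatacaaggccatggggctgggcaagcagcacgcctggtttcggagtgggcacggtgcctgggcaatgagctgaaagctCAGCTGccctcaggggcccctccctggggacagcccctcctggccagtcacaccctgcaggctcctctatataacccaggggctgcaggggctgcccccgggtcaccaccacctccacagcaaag
Ckb, chr6:136553415-136553714, minus strand: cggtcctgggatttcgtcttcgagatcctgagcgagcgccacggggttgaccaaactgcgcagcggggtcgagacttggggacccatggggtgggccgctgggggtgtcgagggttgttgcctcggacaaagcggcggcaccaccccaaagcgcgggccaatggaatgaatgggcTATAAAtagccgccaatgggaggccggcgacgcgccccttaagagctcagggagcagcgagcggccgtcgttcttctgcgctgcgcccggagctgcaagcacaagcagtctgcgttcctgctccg
Slc6a8, chrX:156535767-156536066, plus strand: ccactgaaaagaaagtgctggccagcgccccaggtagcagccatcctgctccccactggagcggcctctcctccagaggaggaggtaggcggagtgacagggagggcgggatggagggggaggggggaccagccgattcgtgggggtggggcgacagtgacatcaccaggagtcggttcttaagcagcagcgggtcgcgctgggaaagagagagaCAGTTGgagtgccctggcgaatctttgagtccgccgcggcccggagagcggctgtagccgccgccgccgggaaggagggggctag
The Ckm window held 3 matches to CANNTG, at -226, -199 and -75 counted from the start, and 0 to TATAAA. The Ckb window held 0 matches to CANNTG and 1 to TATAAA, at -75. The Slc6a8 window held 1 match to CANNTG, at -35. Of 33469 rat promoter windows of this length, 72.1% held CANNTG and 14.2% TATAAA. The letters AGGTCA, the core hexamer recognised by thyroid hormone receptors and other nuclear receptors, were in 16.2% of all windows and in none of the 8 member windows in the table (0 matches in each; Ampd3 was not among them). These windows were searched for letters only, and nothing follows from them about binding.

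The muscle creatine kinases were near control. Ckm had signals of 18812, 26010, 21931 and 26322 on hyperthyroid 1, 2, 3 and 5, against 28035, 25464, 24553 and 24700 on control 7, 8, 9 and 11. Hyperthyroid 1 and 3 lay below every control, while hyperthyroid 2 and 5 lay among them. The difference was -0.15 ± 0.14 (95% interval -0.47 to 0.16; adjusted p = 0.694 in limma), and -0.22 ± 0.13 without hyperthyroid 5. After quantile normalization it was 0.00, and without hyperthyroid 1 it was -0.06 ± 0.14. Without both hyperthyroid 2 and hyperthyroid 5 it was -0.34 ± 0.12 (adjusted p = 0.283). The skeletal muscle marker list, of which Ckm is itself 1 of 6 genes, had the same low arrays, at -0.43 and -0.21 from the control mean on hyperthyroid 1 and 3 and at 0.19 and 0.18 on hyperthyroid 2 and 5. Of the list, 5 of 6 genes were lower on average, its summed signal was 105705 to 154465 on hyperthyroid arrays, against 121302 to 152849 on controls, and its part in the Ckm values was not tested.

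Ckmt2, which couples ATP made in the mitochondrion to phosphocreatine, had signals of 23591, 20561, 21859 and 19149 on the hyperthyroid arrays, against 26556, 26196, 24244 and 21301 on the controls. The groups overlapped, with control 11 below hyperthyroid 1 and 3. The difference was -0.21 ± 0.13 (95% interval -0.50 to 0.09; adjusted p = 0.563), and -0.16 ± 0.12 without hyperthyroid 5. Slc25a4, which exchanges mitochondrial ATP for cytosolic ADP, had a difference of similar size, but other hyperthyroid arrays were low. Its signals were 21279, 22694, 21070 and 23056 on the hyperthyroid arrays, against 27558, 25618, 24347 and 21510 on the controls. Hyperthyroid 1 and 3 lay below every control, where for Ckmt2 hyperthyroid 2 and 5 did. The difference was -0.16 ± 0.13 (95% interval -0.44 to 0.12; adjusted p = 0.635), and -0.19 ± 0.12 without hyperthyroid 5. These 3 probe sets were brighter than 99.95% (Ckm), 99.94% (Ckmt2) and 99.94% (Slc25a4) of all probe sets, and whether differences are compressed at such signals was not tested.

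Ckb had the largest difference among the tested member probe sets on all 8 arrays, though not in every other setting. Gatm was farther from 0 without hyperthyroid 1 (-1.05), hyperthyroid 3 (-0.98), control 7 (-0.98) or control 8 (-0.78). Ampd1 was farther from 0 without hyperthyroid 5 (-0.70) or without both hyperthyroid 2 and hyperthyroid 5 (-0.76). With no filter on dim signals, so was the dimmer Gatm probe set (-0.88). The Ckb signals were 183, 212, 159 and 88.1 on hyperthyroid 1, 2, 3 and 5, against 211, 317, 258 and 294 on control 7, 8, 9 and 11. Hyperthyroid 1, 3 and 5 lay below every control, and hyperthyroid 2 lay just above control 7 alone. The mean signal was 161 ± 52.9 in hyperthyroid and 270.1 ± 46.4 in control muscle (SD, n = 4 each). The difference was -0.81 ± 0.27 (95% interval -1.39 to -0.22), or 0.572 of the control level, with an unadjusted p of 0.0116 and an adjusted p of 0.331 in limma. Without hyperthyroid 5, the lowest array, it was -0.54 ± 0.20 (0.687 of the control level; adjusted p = 0.231). Across the 19 alternative settings it stayed below 0, between -1.19 and -0.54, with an unadjusted p under 0.05 in all 19 and an adjusted p between 0.0904 and 0.543. The lowest adjusted p came with the Gapdh ratio as a covariate.

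**Figure D2:**
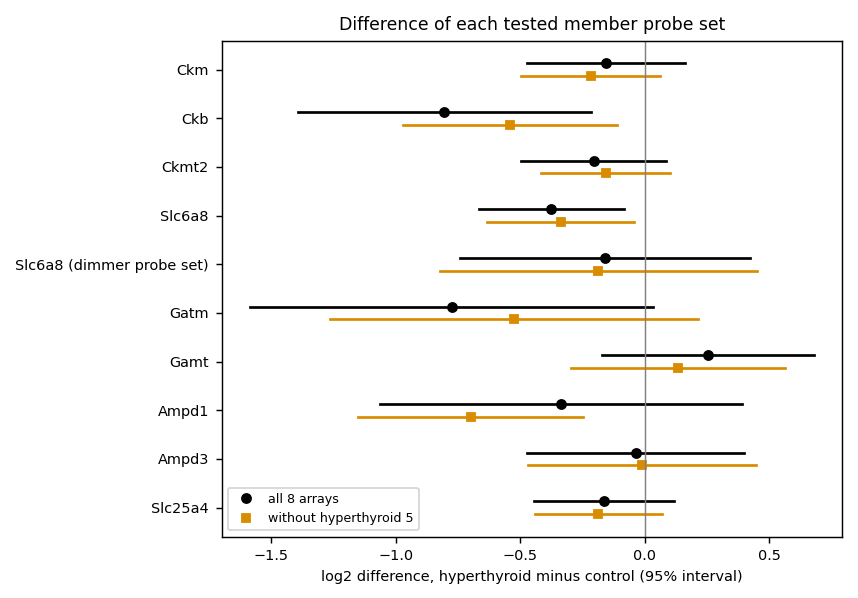
Difference between hyperthyroid and control (horizontal axis, log2) for the 10 tested member probe sets, with 95% intervals from limma on all 8 arrays (black circles) and without hyperthyroid 5 (orange squares). The intervals of Ckb and of the brighter Slc6a8 probe set lie below 0 in both fits, that of Ampd1 only without hyperthyroid 5.

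Ckb is also a gene of glia and smooth muscle, so markers of those cells were read beside it. Of the oligodendrocyte and optic nerve list, 9 of 10 genes were measured and all 9 were lower on average. Their summed signal ranged from 1670 to 14933 on hyperthyroid arrays, against 9544 to 19079 on controls, and no value was listed at 0 (0 values). Mobp, a myelin gene of oligodendrocytes, was at 15.3 on hyperthyroid 2 and 1.37 on hyperthyroid 5. As averaged log2 values from the control mean, the list lay at -0.05, -3.28, 0.00 and -4.62 on hyperthyroid 1, 2, 3 and 5, where Ckb lay at -0.55, -0.33, -0.75 and -1.60. Hyperthyroid 5 was the lowest hyperthyroid array for both, and control 7 was the lowest control for both, at -0.55 for the list and -0.34 for Ckb. Without both hyperthyroid 2 and hyperthyroid 5 the Ckb difference was -0.65 ± 0.22 (unadjusted p = 0.0117, adjusted p = 0.255 in limma). The smooth muscle list, with 6 of 6 genes measured and 3 lower, had summed signals of 1655 to 3713 on hyperthyroid arrays, against 2063 to 3869 on controls. In each group it was lowest on the same array as Ckb, at -0.72 on hyperthyroid 5 and -0.42 on control 7. So was the Schwann cell and nerve list, which shares Mbp with the oligodendrocyte list, at -3.24 and -0.41. On hyperthyroid 1, 2 and 3, where Ckb lay below the control mean, the smooth muscle list was at 0.29, 0.26 and -0.02. The Schwann cell and nerve list was at 0.45, -0.77 and -0.68 there. The part of other cell types in the Ckb difference was not tested, and in whole muscle RNA fewer cells of a type cannot be told apart from less transcript per cell.

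Slc6a8, the creatine transporter of the muscle membrane, was the only gene of the group whose 8 arrays separated. On its brighter probe set the signals were 434, 477, 522 and 429 on hyperthyroid 1, 2, 3 and 5, against 572, 609, 576 and 655 on control 7, 8, 9 and 11. Every hyperthyroid array lay below every control, as did 3.23% of all probe sets tested. The mean was 466 ± 43.1 in hyperthyroid and 603 ± 38.4 in control muscle (SD, n = 4 each). The difference was -0.38 ± 0.13 (95% interval -0.67 to -0.08), or 0.771 of the control level, with an unadjusted p of 0.0160 and an adjusted p of 0.336 in limma. Without hyperthyroid 5 it was -0.34 ± 0.13 (adjusted p = 0.264). Over the 19 alternatives it ran from -0.49 to -0.33, with an unadjusted p under 0.05 in all 19.

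The dimmer Slc6a8 probe set did not show this separation. Its signals were 153, 94.0, 71.9 and 109 on the hyperthyroid arrays, against 134, 121, 119 and 90.4 on the controls. Hyperthyroid 1 was the highest of all 8 arrays and hyperthyroid 3 the lowest. The difference was -0.16 ± 0.27 (95% interval -0.74 to 0.42; adjusted p = 0.836), an interval that includes the value of the brighter probe set.

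Neither enzyme of creatine synthesis had an unadjusted p under 0.05 in the limma fit of the deposited values on all 8 arrays. Over the 19 alternatives, the brighter Gatm probe set was under that level in 6 and Gamt in 0. Gatm, which makes guanidinoacetate from arginine and glycine, had signals of 343, 120.1, 295 and 115 on hyperthyroid 1, 2, 3 and 5, against 218, 326, 415 and 406 on control 7, 8, 9 and 11. Hyperthyroid 2 and 5 lay below every control, and hyperthyroid 1 and 3 lay within the control range. The difference was -0.78 ± 0.37 (95% interval -1.59 to 0.03; unadjusted p = 0.0589, adjusted p = 0.450 in limma), and -0.52 ± 0.34 without hyperthyroid 5. The same arrays were low in oligodendrocyte and optic nerve markers, which lay at -3.28 on hyperthyroid 2 and -4.62 on hyperthyroid 5 from the control mean, as averaged log2 values. The Schwann cell and nerve list, with 7 of 8 genes measured and all 7 lower, had summed signals of 3134 to 21853 on hyperthyroid arrays, against 12048 to 23421 on controls, with the lowest on hyperthyroid 5 and 2. Without both of these arrays the Gatm difference was -0.06 ± 0.25 (adjusted p = 0.944). The genes whose signal over the 8 arrays was most like that of Gatm were Ppp1r14a (r = 0.996), Slc13a4 (r = 0.990) and Klk6 (r = 0.976), and over the 7 arrays without hyperthyroid 5 those of Ppp1r14a and Slc13a4 were 0.995 and 0.984. A dimmer Gatm probe set had signals of 3.94 to 20.97 on hyperthyroid arrays, against 2.97 to 50.7 on controls, and was too dim to be tested.

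Gamt, which methylates guanidinoacetate to creatine, was the only member with a positive difference. Its signals were 151, 159.8, 159 and 218 on hyperthyroid 1, 2, 3 and 5, against 129, 167, 133 and 145 on control 7, 8, 9 and 11. The array hyperthyroid 5 lay above the rest, and the other 3 lay within the control range. The difference was 0.25 ± 0.19 (95% interval -0.17 to 0.68; adjusted p = 0.629 in limma), and 0.13 ± 0.20 without hyperthyroid 5.

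**Figure D3:**
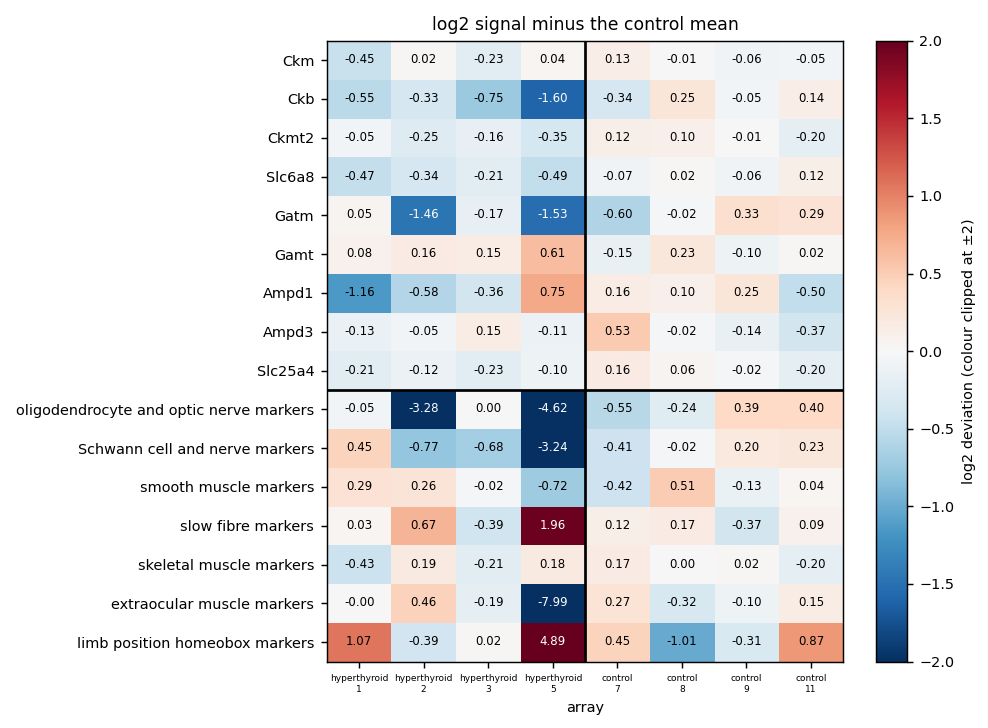
Log2 signal minus the mean of the 4 controls for the 9 genes (upper rows) and for the average of 7 marker lists (lower rows) on each array (columns, hyperthyroid left of the line, control right), with the colour clipped at ±2. Gatm is low where the oligodendrocyte and optic nerve markers are low, on hyperthyroid 2 and 5, and Ampd1 is above the control mean only on hyperthyroid 5 within its group.

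On all 8 arrays, the AMP deaminase genes Ampd1 and Ampd3 differed between arrays more than between groups. Ampd1 had signals of 1814, 2703, 3147 and 6819 on hyperthyroid 1, 2, 3 and 5, against 4505, 4319, 4797 and 2863 on control 7, 8, 9 and 11. Hyperthyroid 1 and 2 lay below every control, hyperthyroid 3 lay just above control 11, and hyperthyroid 5 lay above all other arrays. The mean was 3621 ± 2203 in hyperthyroid and 4121 ± 861 in control muscle (SD, n = 4 each), and the difference was -0.34 ± 0.33 (95% interval -1.06 to 0.39; adjusted p = 0.707 in limma). Without hyperthyroid 5 the mean was 2555 ± 679 (SD, n = 3) and the difference -0.70 ± 0.21 (95% interval -1.15 to -0.25; unadjusted p = 0.00550, adjusted p = 0.161), or 0.616 of the control level. Without hyperthyroid 1 instead, with hyperthyroid 5 kept, it was -0.06 ± 0.30.

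Ampd1 moved with other measures of the arrays. Hyperthyroid 1 and 2, with the highest Gapdh ratios (3.91 and 4.40), had the lowest Ampd1 signals of their group, and hyperthyroid 5, with the lowest ratio (1.44), had the highest. Controls did not follow this order, since control 11 had both their lowest ratio (1.67) and their lowest Ampd1 signal (2863). The ratios of hyperthyroid 1, 2 and 3 lay above every control, so without hyperthyroid 5 RNA length and treatment cannot be told apart. With the Gapdh ratio as a covariate on all 8 arrays the difference was 0.21 ± 0.26 (adjusted p = 0.780). On hyperthyroid 5 the slow fibre list was at 1.96 from the control mean and Ampd1 at 0.75. Actn3 was also highest there, at 23834, against at most 16552 on the other arrays. The rest of the skeletal muscle list lay within the range of those arrays. Prkag3, found mainly in fast skeletal muscle, was at 2092 on hyperthyroid 5, against at most 503 elsewhere. The array of lowest Ampd1 signal in each group, hyperthyroid 1 and control 11, was also the 1 array of that group with Xist above Eif2s3y. With this call as a covariate the difference was -0.34 ± 0.25 (adjusted p = 0.623). The part of RNA length, of the muscle sampled and of sex-linked calls in the Ampd1 values of single arrays was not tested. Ampd3 had signals of 276 to 334 on hyperthyroid arrays, with a median of 285, against 234 to 435 on controls, with a median of 286. Its difference was -0.04 ± 0.20 (95% interval -0.47 to 0.40; adjusted p = 0.954), and -0.01 ± 0.21 without hyperthyroid 5. The hyperthyroid range of Ampd3 lay wholly inside the control range.

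Likeness across the arrays was read for the other genes too, as a description over 8 arrays that share group and array effects, among 10446 genes. How high r runs from such a search alone was not tested. Slc6a8 was most like Ogdh (r = 0.986), Oxct1 (r = 0.976) and Glud1 (r = 0.967). These encode a subunit of 2-oxoglutarate dehydrogenase, the enzyme that activates ketone bodies, and glutamate dehydrogenase. Ckb was most like Acss1 (r = 0.990), Mul1 (r = 0.974) and Pebp1 (r = 0.964), and Acss1 encodes a mitochondrial acetyl-CoA synthetase. Ckmt2 was most like Uqcrq (r = 0.981), a subunit of respiratory complex III, Slc25a12 (r = 0.966), the mitochondrial aspartate-glutamate carrier, and Arih1 (r = 0.951). Ckm was most like Trdn (r = 0.972), for triadin of the calcium release unit, Pla2g4a (r = 0.961) and Srpk3 (r = 0.960). The closest genes for the rest were Zdhhc7 for Gamt (r = 0.980), Ubac1 for Ampd1 (r = 0.970), Srp14 for Ampd3 (r = 0.965) and Mrps17 for Slc25a4 (r = 0.978). Next for Gamt was Hoxd8 (r = 0.977), a gene of the limb position homeobox list. Without hyperthyroid 5 the values for these pairs ran from 0.922 (Gamt with Hoxd8) to 0.987 (Slc6a8 with Ogdh). Among the members themselves, the highest values over 8 arrays were 0.803 for Ckb with Slc6a8 and 0.718 for Ckm with Ampd1. Over the 7 arrays without hyperthyroid 5 the highest were 0.811 for Ckmt2 with Slc25a4 and 0.783 for Ampd1 with Slc25a4, and the first 2 pairs were at 0.753 and 0.740.

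Other genes of adenine nucleotide and purine metabolism were read from lists of the same pathway, chosen by function. These held 73 probe sets of 47 genes, of which 57 probe sets of 42 genes were tested, and none passed the adjusted threshold (0 of 57; 0.0% of all probe sets). At an unadjusted p under 0.05, 6 were higher and 3 lower in hyperthyroid muscle, where 6.25% and 5.3% of all probe sets were. Their median difference was -0.11, beside 0.03 over all probe sets. Without hyperthyroid 5, 5 of 55 were higher and 9 lower, where 7.55% and 7.64% of all probe sets were. The 6 higher on all 8 arrays include the dimmer probe set of Ampd2, which fell under the filter on dim signals without hyperthyroid 5. Of the 57, 5 were higher and 2 lower without overlap of the groups, where 4.33% and 3.23% of all probe sets were. These 5 also include the dimmer probe set of Ampd2, which passed the filter through its hyperthyroid signals.

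**Figure D4:**
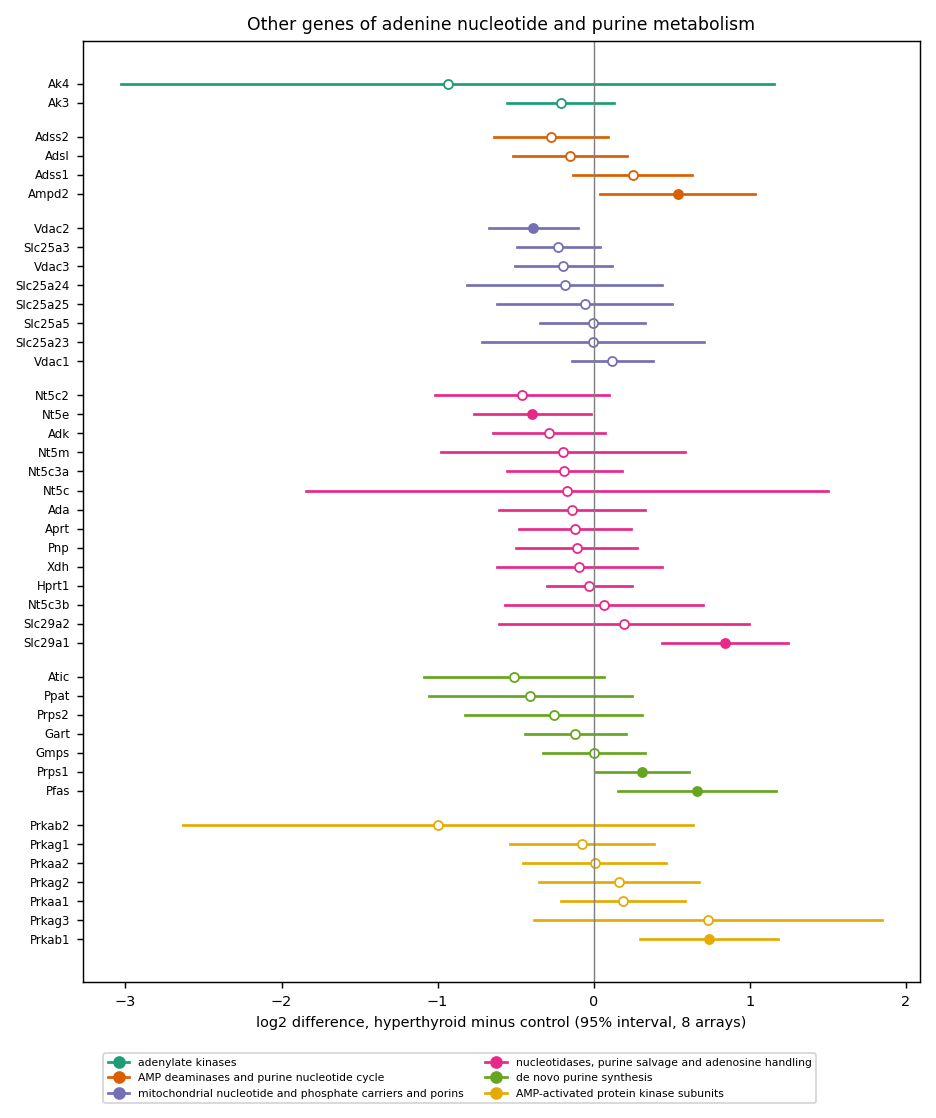
Difference between hyperthyroid and control (horizontal axis, log2, 95% interval from limma on 8 arrays) for the brightest probe set of each of the 42 other pathway genes tested, coloured by list. Filled points have an unadjusted p under 0.05, with Slc29a1 and Prkab1 the farthest to the right among them, and no gene passed after adjustment.

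Slc29a1, a nucleoside transporter that carries adenosine across the cell membrane, had the smallest p of these genes on all 8 arrays, and without hyperthyroid 5 the dimmer probe set of Adk did (unadjusted p = 0.000736 in limma, against 0.00188 for Slc29a1). Its signals were 200.4, 225, 197 and 219.8 on hyperthyroid 1, 2, 3 and 5, against 119, 129.7, 94.6 and 130.3 on control 7, 8, 9 and 11. Every hyperthyroid array lay above every control, as did 4.33% of all probe sets. The difference was 0.84 ± 0.18 (unadjusted p = 0.000737, adjusted p = 0.216 in limma), and 0.82 without hyperthyroid 5. Nt5e, the ectoenzyme that makes adenosine from AMP outside the cell, was at 158 to 176 on hyperthyroid arrays, against 192 to 267 on controls, with a difference of -0.39 ± 0.17 (adjusted p = 0.416). Its groups did not overlap either, and without hyperthyroid 5 the difference was -0.41.

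Prkab1, a regulatory subunit of the AMP-activated protein kinase, had signals of 318, 433, 239 and 342 on hyperthyroid 1, 2, 3 and 5, against 225, 167, 209 and 184 on control 7, 8, 9 and 11. The groups did not overlap, and the difference was 0.74 ± 0.20 (adjusted p = 0.275 in limma), or 0.72 without hyperthyroid 5. It was the only 1 of 9 tested probe sets of this kinase with an unadjusted p under 0.05. Vdac2, a porin of the outer mitochondrial membrane through which nucleotides pass, was at 3342 to 4615 on hyperthyroid arrays, against 4833 to 5446 on controls, with a difference of -0.39 ± 0.13 (adjusted p = 0.331), or -0.41 without hyperthyroid 5. Of the mitochondrial carriers and porins beside Slc25a4, 9 of 10 tested probe sets had a negative difference, beside 8843 of all 18625, and 1 of these, Vdac2, had an unadjusted p under 0.05. Without hyperthyroid 5, 6 of the 10 were negative, beside 8539 of 18625, and 4 had an unadjusted p under 0.05, beside 7.64% of all probe sets. These 4 were Vdac2, the dimmer probe sets of Vdac1 and Slc25a23, and Slc25a24, a carrier of ATP-Mg and phosphate.

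Of 12 tested probe sets of de novo purine synthesis, 6 had a negative difference (9 without hyperthyroid 5), and the median was -0.06. Pfas and Prps1 were higher without overlap, as were 4.33% of all probe sets. Signals were 140 to 243 against 89.4 to 132 for Pfas and 424 to 494 against 353 to 406 for Prps1 (hyperthyroid against control). Pfas acts in the building of the purine ring, and Prps1 makes its ribose phosphate donor. Their differences were 0.66 ± 0.23 and 0.31 ± 0.14 (adjusted p = 0.332 and 0.416 in limma), or 0.65 and 0.35 without hyperthyroid 5, and a dimmer Prps1 probe set was at -0.29. Ampd2, the third AMP deaminase gene, had a difference of 0.54 ± 0.23 on its brighter probe set (adjusted p = 0.405; 0.64 without hyperthyroid 5), with signals of 108 to 169 on hyperthyroid arrays, against 79.5 to 111 on controls. Its dimmer probe set was at 57.6 to 77.6 on hyperthyroid arrays, against 6.64 to 57.4 on controls, so that control 11 lay just below the lowest hyperthyroid array. Control 7, 8 and 9 were at 6.64, 8.39 and 9.57, under the filter's mean signal of about 28.2. This probe set thus passed the filter through its hyperthyroid signals, and it was not tested without hyperthyroid 5. Among the adenylate kinases, Ak3 of the mitochondrial matrix was at -0.43 ± 0.19 on its dimmer probe set (adjusted p = 0.419; -0.54 without hyperthyroid 5) and at -0.21 on the brighter one.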

How the data were processed

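The authors deposited 1 intensity per probe set and array on a linear scale, made with GCOS, the array maker's software, per the submitters' processing notes, which give no version. In the deposited intensities each array had the same mean, 149.99, after 2% was trimmed at each end. Detection calls and further filters are not given in the sources used here. Control probe sets (57) were left out. Values were set to at least 1 and taken to log2, and the upper 60% of probe sets by mean were kept, which left 18625 above a mean signal of about 28.2. The difference between the groups was fitted by lmFit and eBayes with a trend (limma 3.58.1, R 4.3.3; two-sided) and Benjamini-Hochberg adjustment at 0.05 over all probe sets tested. The fit was tested on simulated data. Where a gene had several probe sets, the brightest on average leads.

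All members were named, with array values for the brightest probe set of each and for others at an unadjusted p under 0.05. Pathway genes were named where the brightest probe set had an unadjusted p under 0.05, and up to 3 genes most like a member were listed by Pearson correlation. The dimmer probe sets of Ampd2, Prps1, Ak3, Adk, Vdac1 and Slc25a23, Slc25a24, the dimmer one of Slc6a8 by array, and the genes under other observations were named after their values were seen. Members, lists and the fit without hyperthyroid 5 were chosen with earlier results of these data known. Gene names come from the platform annotation, sequences from RefSeq, with 8 of 10 members matched to a promoter by symbol among windows of 300 bases on GRCr8 (Ak1 and Ampd3 were not matched). The 19 alternatives were other normalizations, filters, a pseudocount of 32, variance models, array weights, the Gapdh ratio or a sex-linked transcript call as a covariate, each array left out, and hyperthyroid 2 and 5 left out. Each array is 1 rat, so p-values rest on the spread between arrays, which takes in the rat, the tissue sampled and the RNA together. The number of arrays limits precision.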

Additional observations from a re-analysis of the deposited data

Results flagged for a closer look

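In 36 groups of 4 arrays examined, for 18 probe sets in both groups, an array lay farther from the rest than Dixon's 95% critical value allows (gap over range on the log2 scale) in 2 groups, and chance gives about 1 in 20. Gamt was at 218.05 on hyperthyroid 5, above the other 3 hyperthyroid arrays (151 to 159.8), with a ratio of 0.848. Nt5e was at 158.39 on hyperthyroid 1, below the other 3 hyperthyroid arrays, with a ratio of 0.849, though its group spans a narrow range of 158 to 176.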

How the results depend on the processing

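No paired analysis was possible because the groups share no replicate numbers. Of the 19 alternative settings, 15 again gave 0 probe sets past the adjusted threshold. The others gave 6 with array weights, 8 with the Gapdh ratio as a covariate, 29 without hyperthyroid 5 and 9 without hyperthyroid 2 and 5, so leaving out 1 array gave a range of 0 to 29. Median centring moved the median of all probe sets by -0.12 and gave 4 member probe sets lower at an unadjusted p under 0.05 in place of 2, as did leaving out hyperthyroid 2 and 5 (4). The median member difference was -0.30 with median centring, and -0.27 to -0.14 when 1 array was left out, with -0.27 without control 11. The 9 other pathway probe sets at that level became 4 without hyperthyroid 3, 5 without control 8, 4 without control 11 and 14 without hyperthyroid 5, a range of 4 to 14. Differences of Ckb, the brighter Slc6a8 probe set, Gatm, Ckmt2, Slc25a4 and Gamt kept their direction in all 19 settings, and no member passed the adjusted threshold in any. The sign turned for Ckm with quantile normalization (0.0024), for Ampd1 with the Gapdh covariate (0.21), for the dimmer Slc6a8 probe set without hyperthyroid 3 (0.0125, in a range of -0.35 to 0.0125 when 1 array was left out), and for Ampd3 with array weights (0.0443), without hyperthyroid 2 and 5 (0.00912) and without control 7 (0.14, in a range of -0.16 to 0.14 when 1 array was left out). The causes were not tested.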

Other observations

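Other genes of the pathway lists stood out on the array labelled hyperthyroid 5, and they were chosen after their values were seen. Ak4, a mitochondrial adenylate kinase, had a signal of 6.40 on hyperthyroid 5, against 204 to 261 on the other hyperthyroid arrays and 137 to 212 on controls. Prkag3, a subunit of the AMP-activated protein kinase found mainly in fast skeletal muscle, was at 2092 on hyperthyroid 5, against 292 to 484 on the other hyperthyroid arrays and 243 to 503 on controls.

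Adk, which returns adenosine to AMP, had 2 probe sets. The dimmer was at 124.5, 95.3 and 171 on hyperthyroid 1, 2 and 3, below all 4 controls (233 to 274), and at 313 on hyperthyroid 5, above them. Its difference was -0.66 on all 8 arrays (adjusted p = 0.443 in limma) and -0.99 without hyperthyroid 5 (adjusted p = 0.0935). The brighter probe set was at 487, 572, 739 and 745 on hyperthyroid 1, 2, 3 and 5, against 699 to 831 on controls. Hyperthyroid 3 and 5 thus lay within its control range. The difference there was -0.29 (adjusted p = 0.517 in limma), and -0.37 without hyperthyroid 5 (adjusted p = 0.290).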
